A study of Arabidopsis thaliana with 12 samples.

Results

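The 10 genes described here encode the core enzymes and effectors of microRNA (miRNA) action and post-transcriptional gene silencing in Arabidopsis thaliana. They are DCL1, DCL2 and DCL4, AGO1, AGO2, AGO3, AGO5 and AGO7, RDR6 and SGS3, taken by their locus identifiers. All 10 are listed among the 23151 genes of the mature-leaf table and among the 23385 genes of the young-shoot table. Transcripts were measured by RNA-seq in 3 libraries each of met1-3 young shoots from 2-week-old seedlings, ddcc mature leaves from 5-week-old plants and wild-type Col-0 mature leaves of the same age. The met1-3 line is mutated in MET1, which maintains CG methylation, and the ddcc line in DRM1, DRM2, CMT2 and CMT3, which methylate cytosines outside CG. All lines are in the Columbia background, and the methods describe the material as the aerial part, with the inflorescence removed at 5 weeks. The alleles combined in ddcc are not given in the sources used here. Nothing says that the 3 replicates of a group came from separate plants, so the p-values measure the spread between these libraries, which may be technical.

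Both pathways cut double-stranded RNA into small RNAs and use them to find matching transcripts. DCL1 is the Dicer-like RNase that releases miRNAs from folded precursors, and AGO1 is the Argonaute that carries most of them and cuts or represses their targets. In post-transcriptional silencing, the RNA-dependent RNA polymerase RDR6, helped by the RNA-binding protein SGS3, copies cleaved transcripts into double strands that DCL4 and DCL2 dice, and the same enzymes make trans-acting siRNAs (ta-siRNAs) from TAS transcripts. These genes are best known for acting after transcription, while DRM2, mutated in ddcc, serves RNA-directed DNA methylation.

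Several of these genes are themselves miRNA targets, the best known feedback in the pathway, so the miRNAs and their sites are shown. The mature sequences are those of RefSeq on TAIR10.1, 5′ to 3′, with the seed (bases 2 to 8) in capitals. The loci of the a and b copies of miR162 and of miR168 encode the same mature sequence, and miR390, the partner of AGO7, is added because it starts ta-siRNA production at TAS3 loci.
miR162a-3p (chromosome 5, 2634936 to 2634956, minus strand): uCGAUAAAccucugcauccag
miR168a-5p (chromosome 4, 10578652 to 10578672, plus strand): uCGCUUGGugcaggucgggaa
miR403-3p (chromosome 2, 19415154 to 19415174, plus strand): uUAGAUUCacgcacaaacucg
miR390a-5p (chromosome 2, 16061971 to 16061991, plus strand): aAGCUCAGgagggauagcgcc
The sites below are read from the annotated transcripts on the same build, in DNA letters and 5′ to 3′ along the transcript, with bases that form a Watson-Crick pair with the miRNA in capitals.
miR162 site in DCL1 (coding sequence, across an intron, chromosome 1, 27522 to 27627, plus strand): CTGGATGCAGAGGTaTTATCGA
miR168 site in AGO1 (coding sequence, chromosome 1, 17891529 to 17891549, minus strand): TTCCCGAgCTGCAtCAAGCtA
miR403 site in AGO2 (3′ UTR, chromosome 1, 11185223 to 11185243, plus strand): gGAGTTTGTGCGTGAATCTAA
miR403 site in AGO3 (3′ UTR, chromosome 1, 11192399 to 11192419, plus strand): gatGTTTGTGCGTGAATCTAA
Sites were scored with 1 point for a mismatch, 0.5 for a G:U pair, both doubled opposite miRNA bases 2 to 13, and 2 for a single bulged base of the target. The sites scored 2 in DCL1, 4 in AGO1, 1 in AGO2 and 3 in AGO3. Among 27444 genes scanned, only DCL1, AGO1 and AGO2 scored as low as their own site for their miRNA, and 2 genes did so at the score of the AGO3 site. AGO2 and AGO3 stand next to each other, 2723 bp apart, and share most of the letters of this site. A match in letters is a description and does not show that cutting took place, and mature miRNAs were not measured in these libraries.

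The libraries held 10105057 to 13989374 reads assigned to genes, 3938275 to 5310477 of them on nuclear genes. Plastid genes took 56.7 to 58.3% of the reads in met1-3 young shoots, 64.4 to 65.8% in ddcc leaves and 57.8 to 59.6% in Col-0 leaves. TE genes took 1.15 to 1.18% of the reads counted in met1-3 young shoots, 0.166 to 0.183% in ddcc leaves and 0.0682 to 0.0729% in Col-0 leaves. Of the genes mutated in ddcc, DRM2 had 9.95 to 33.3 normalised reads in ddcc leaves, against 47.2 to 68.7 in Col-0 leaves. CMT2 had 174 to 194 in ddcc leaves, against 108 to 142 in Col-0 leaves, and reads over a whole gene do not show whether its product is made. CMT3 averaged 35.7 in ddcc leaves and 45.9 in Col-0 leaves. DRM1 averaged 0.327 in ddcc leaves and 0.29 in Col-0 leaves, too few to be tested. Files labelled as met1-3 mature leaves held the same reads as Col-0 for all 22607 shared genes in each replicate and were left out. The 4 nuclear photosynthesis markers of leaf cells summed to 85746 to 94323 normalised reads in ddcc leaves and 35417 to 43326 in Col-0 leaves, with reads in every library of met1-3 young shoots as well. RCA made up most of the sum in Col-0 leaves. The ratio of the ddcc to the Col-0 mean was 1.55 for RCA, 2.41 for LHCA1, 4.21 for RBCS1A and 5.97 for LHCB1.3. The senescence marker SEN1 was at 357 to 702 in ddcc leaves and 197 to 263 in Col-0 leaves, the 5 flower markers summed to at most 34.2 in any library. Of 4 meristem markers, CLV3 and WUS were not listed in either table. STM and KNAT1 had reads in every library and together 109 to 132 normalised reads in ddcc leaves and 72.3 to 126 in Col-0 leaves. In met1-3 young shoots, normalised apart, they summed to 36.7 to 47.8. Of 4 root markers, PYK10 alone was listed in the leaf table, and 3 were listed in the young-shoot table. The listed root markers summed to 77.4 to 120 in ddcc leaves, 32.6 to 97.5 in Col-0 leaves and 585 to 778 in met1-3 young shoots. The differences between ddcc and Col-0 leaves run alongside every comparison of the mature leaves below, and their part in the results was not tested.

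Levels between genes were compared as reads per kb of exonic length per 1000000 nuclear reads (nuclear RPKM), a scale that can also be set side by side across the separately normalised tables. AGO1 had the highest level and DCL1 the next highest in all 3 groups, and neither overlapped its neighbour. AGO1 (AT1G48410, chromosome 1, 17885633 to 17892632) was at 46.6 ± 9.09 in met1-3 young shoots, 44.9 ± 3.24 in ddcc leaves and 55.5 ± 5.24 in Col-0 leaves (SD, n = 3 each). DCL1 (AT1G01040, chromosome 1, 23121 to 31227) was at 15.8 ± 1.60 in met1-3 young shoots, 21.7 ± 1.91 in ddcc leaves and 30.9 ± 1.23 in Col-0 leaves. AGO1 thus lay between percentiles 88.8 and 92.6 of the nuclear protein-coding genes listed, over all 9 libraries, and DCL1 between 72.7 and 82.7.

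AGO2, an Argonaute best known from antiviral defence and DNA repair, ranked next in each group, at 11.3 ± 1.03 in met1-3 young shoots, 17.6 ± 1.10 in ddcc leaves and 23.0 ± 3.02 nuclear RPKM in Col-0 leaves (SD, n = 3 each). In Col-0 leaves the next places were taken by DCL2 at 10.8 ± 1.64, DCL4 at 10.3 ± 2.37, RDR6 at 7.67 ± 0.436 and AGO7 at 6.29 ± 1.07, and neighbours in this stretch overlapped between libraries. In ddcc leaves DCL4, DCL2, RDR6, AGO7 and SGS3 likewise overlapped from one place to the next. In met1-3 young shoots AGO2 overlapped RDR6, RDR6 overlapped DCL4 and DCL2 overlapped AGO7. SGS3 had rank 8 and AGO3 rank 9 in every group, and AGO3, at 0.822 ± 0.311 in met1-3 young shoots, 1.63 ± 0.236 in ddcc leaves and 1.76 ± 0.339 in Col-0 leaves, was the lowest gene with reads in every library.

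AGO5, an Argonaute known from the germ line and its surroundings, was last. It had 0 reads in all 3 met1-3 libraries, 0, 1 and 1 reads in the ddcc libraries and 0 reads in all 3 Col-0 libraries. A count of 0 over a group allows up to 0.063 nuclear RPKM in met1-3 young shoots and 0.062 in Col-0 leaves (3 reads over the group, counting error only). AGO5 was therefore not detectable at this depth in met1-3 and Col-0, was at 2 reads in ddcc, and was removed by the filter on low counts, which left 9 of the 10 genes for the test.

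**Figure D1:**
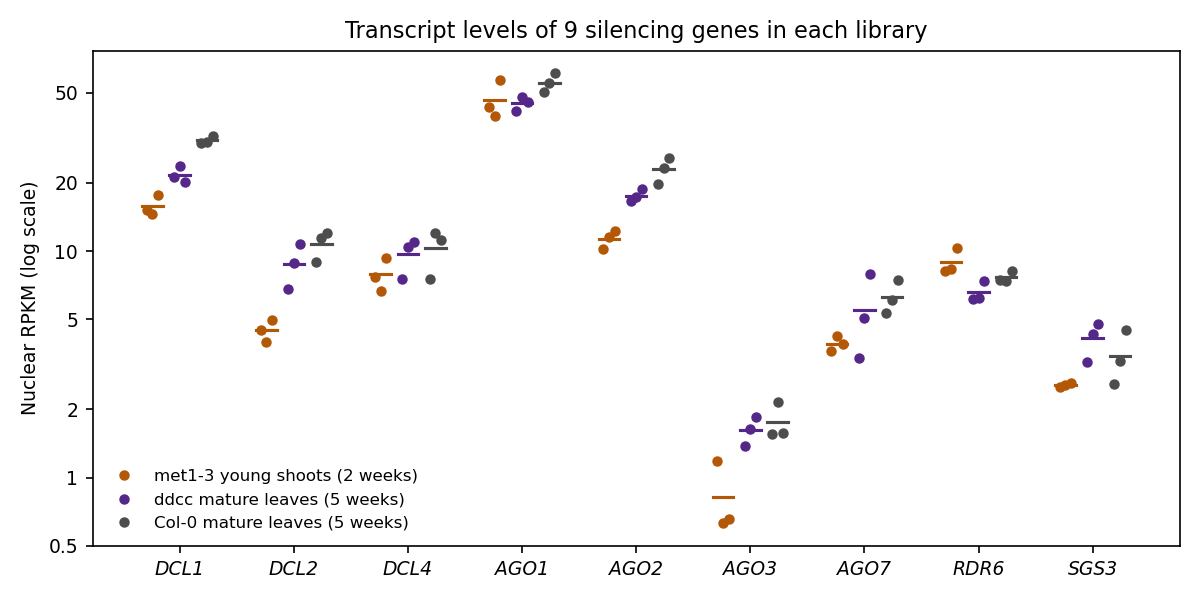
Nuclear RPKM, reads per kb of exonic length per 1000000 nuclear reads (log axis), of 9 silencing genes, with 1 point per library and a line at the mean of 3 libraries, for met1-3 young shoots, ddcc mature leaves and Col-0 mature leaves. AGO1 lies highest in every group and AGO3 lowest, and AGO5, with 0 to 1 reads per library, is not drawn.

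The comparison of ddcc with Col-0 mature leaves asks how transcript levels differ where non-CG methylation is lost. Values are reads divided by the size factor of the library (normalised reads), and the test was limma on the deposited log2 of this value plus 1. By the thresholds of the study's methods (an adjusted p below 0.01 with a log2 fold change beyond 1 in either direction), 861 of 17005 genes tested were called, 5.06% of them (3.90% higher and 1.16% lower in ddcc). None of the 9 silencing genes was called. Under an adjusted p below 0.05 with no limit on fold change, 1 of the 9 passed, DCL1, where 21.4% of all genes did, and 3 of the 9 (33.3%) had an unadjusted p under 0.05, beside 36.1% of all genes. The ddcc and Col-0 libraries did not overlap for 3 of the 9 genes (33.3%), namely DCL1, AGO1 and AGO2, beside 40.6% of all genes tested. The median log2 fold change was -0.20 over the 9 genes and -0.03 over all genes tested, and 8 of the 9 estimates were negative, as were 52.4% of those of all genes.

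DCL1 had 628, 664 and 561 normalised reads in the ddcc libraries, against 850, 821 and 832 in the Col-0 libraries. Every ddcc library was below every Col-0 library, and the spread was wider in ddcc. Its log2 fold change was -0.44 with a standard error of 0.09 (95% interval -0.64 to -0.23, limma adjusted p = 0.00917), so that DCL1 averaged 618 in ddcc leaves, 0.741 times the 834 of Col-0 leaves. The adjusted p stayed under 0.05 in all 14 alternative fits, from 0.000357 to 0.0398. In whole leaves, fewer cells that express a gene and less of its RNA per cell cannot be told apart. DCL1 encloses the MIR838 hairpin, on the same strand. On the other strand it overlaps the gene PPa1 by 58 bp and the long noncoding RNA AT1G03993 by 788 bp, and the strand setting of the counting is not given. Whether reads in these stretches were counted for DCL1 is therefore not known, and reads of these partners cannot be told apart from its own there.

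AGO1 had 714, 773 and 738 normalised reads in the ddcc libraries, against 831, 862 and 912 in the Col-0 libraries. The groups did not overlap, but the difference did not pass the test, with a log2 fold change of -0.23 ± 0.08 (SE, 95% interval -0.42 to -0.04, limma adjusted p = 0.0834). AGO2 (AT1G31280, chromosome 1, 11181504 to 11185396) had 284, 276 and 301 normalised reads in the ddcc libraries, against 323, 361 and 382 in the Col-0 libraries. It too was lower in every ddcc library without passing the test, at -0.30 ± 0.10 (SE, 95% interval -0.54 to -0.07, limma adjusted p = 0.0651). AGO2 passed 0.05 when Col-0 replicate 1 was left out (0.0333) and under scaling by total counts (0.00294), and AGO1 passed under that scaling (0.00253). Its neighbour AGO3 (AT1G31290, chromosome 1, 11188120 to 11192585), a close relative of AGO2, had 26.4, 29.4 and 33.2 in ddcc leaves, against 28.3, 37.4 and 26.1 in Col-0 leaves. The AGO3 libraries of the groups were interleaved, and the interval of the log2 fold change, -0.55 to 0.48, leaves room for either direction.

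The enzymes of siRNA production overlapped between the groups. DCL2, which makes 22-nt siRNAs (AT3G03300, chromosome 3, 767880 to 776214), had 173, 210 and 254 normalised reads in the ddcc libraries, against 215, 262 and 263 in the Col-0 libraries, and shares 847 bp with the gene AT3G03305 on the same strand. DCL4, which makes 21-nt siRNAs (AT5G20320, chromosome 5, 6859212 to 6869307), had 205, 266 and 280 in ddcc leaves, against 196, 297 and 264 in Col-0 leaves. For both genes the lowest values belonged to replicate 1 of each genotype. Their log2 fold changes were -0.23 ± 0.16 (SE, 95% interval -0.57 to 0.12, limma adjusted p = 0.32) for DCL2 and -0.0034 ± 0.17 (SE, 95% interval -0.39 to 0.39, limma adjusted p = 0.991) for DCL4.

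RDR6 (AT3G49500, chromosome 3, 18348974 to 18353673) had 125, 119 and 140 normalised reads in ddcc leaves, against 144, 136 and 144 in Col-0 leaves. SGS3 (AT5G23570, chromosome 5, 7942908 to 7946147) had 45.6, 56.8 and 63.0 in ddcc leaves, against 34.6, 41.7 and 54.6 in Col-0 leaves. The partners had estimates of opposite sign, -0.14 ± 0.12 for RDR6 and 0.34 ± 0.22 for SGS3 (SE), and neither passed the test (limma adjusted p = 0.43 and 0.293). AGO7 (AT1G69440, chromosome 1, 26101407 to 26105328), the Argonaute that carries miR390 to TAS3 transcripts, had 55.2, 77.4 and 122 in ddcc leaves, against 82.8, 90.4 and 105 in Col-0 leaves. The ddcc libraries held both the lowest and the highest AGO7 value, and the interval ran from -0.77 to 0.38.

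**Figure D2:**
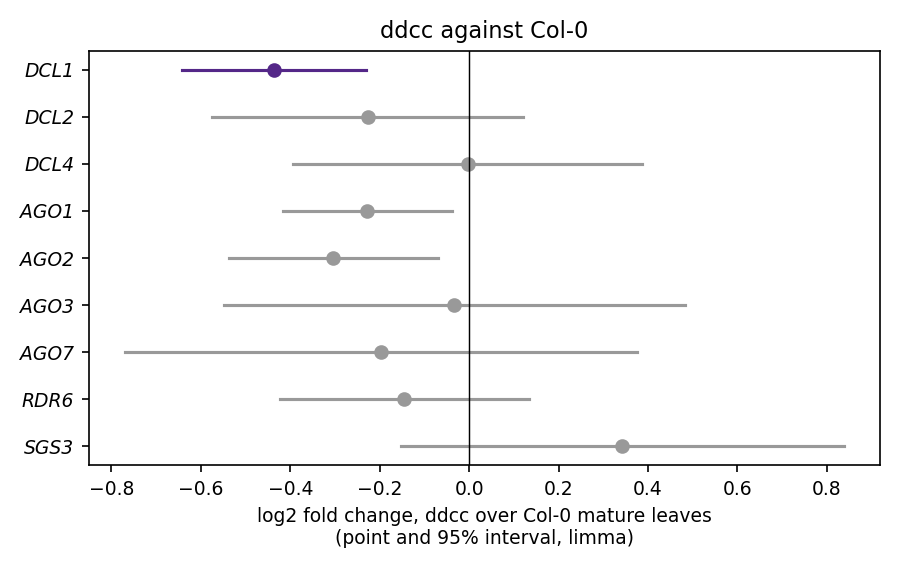
Log2 fold change of ddcc over Col-0 mature leaves for the 9 tested genes, as the limma estimate (point) and its 95% interval (line), with DCL1, the gene with an adjusted p under 0.05, in purple and the others in grey. The intervals of DCL1, AGO1 and AGO2 lie below 0, and those of the other 6 genes cross it.

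To set the 10 genes against each other within a library, without any scaling between libraries, each gene's reads per kb were taken as a share of the sum over the 10. DCL1 took 19.6, 19.0 and 15.7% in ddcc leaves, against 22.4, 20.1 and 19.7% in Col-0 leaves. SGS3 took 3.01, 3.44 and 3.73% in ddcc leaves, against 1.93, 2.16 and 2.74% in Col-0 leaves. Those were the 2 genes of 10 whose shares did not overlap between ddcc and Col-0, each at p = 0.1 in an exact two-sided permutation test over libraries, the smallest p that 3 against 3 allow, and 0.5 after Benjamini-Hochberg adjustment over the 10 tests. The AGO1 share was 37.4 ± 1.57% in ddcc leaves and 37.1 ± 0.681% in Col-0 leaves (SD, n = 3 each).

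Wild-type young shoots were not analysed here, so for the met1-3 young shoots genotype, age and organ cannot be told apart and no test was made. AGO1 took 44.9, 43.0 and 48.0% of the summed reads per kb in met1-3 young shoots, above the highest leaf library at 38.4%. In nuclear RPKM AGO1 was at 39.7 to 56.9 there, 41.4 to 47.8 in ddcc leaves and 50.6 to 61.0 in Col-0 leaves. Its level thus overlapped both leaf groups, and a share also depends on the levels of the other genes in the sum. RDR6 took 8.49, 9.01 and 8.69% in met1-3 young shoots, against 4.97 to 5.76% in ddcc leaves and 4.91 to 5.56% in Col-0 leaves. It had rank 4 in met1-3 young shoots, overlapping its neighbours AGO2 and DCL4, but rank 6 in both leaf groups. In nuclear RPKM RDR6 was at 8.168 to 10.3 in met1-3 young shoots and 6.16 to 7.39 in ddcc leaves. Col-0 leaves, at 7.40 to 8.172, overlapped met1-3 young shoots in this level. DCL2, at 4.20 to 4.67%, and AGO2, at 10.3 to 12.5%, took smaller shares in met1-3 young shoots than in any leaf library. The ratio of DCL1 to AGO1 in reads per kb was 0.310 to 0.369 in met1-3 young shoots. It was 0.441 to 0.511 in ddcc leaves and 0.529 to 0.593 in Col-0 leaves, so the 3 groups did not overlap in it. No ratio was taken for any other pair of the genes, and this one was not planned. It restates the DCL1 and AGO1 levels given above. For single genes, ddcc and Col-0 libraries did not overlap for 40.6% of all genes tested.

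**Figure D3:**
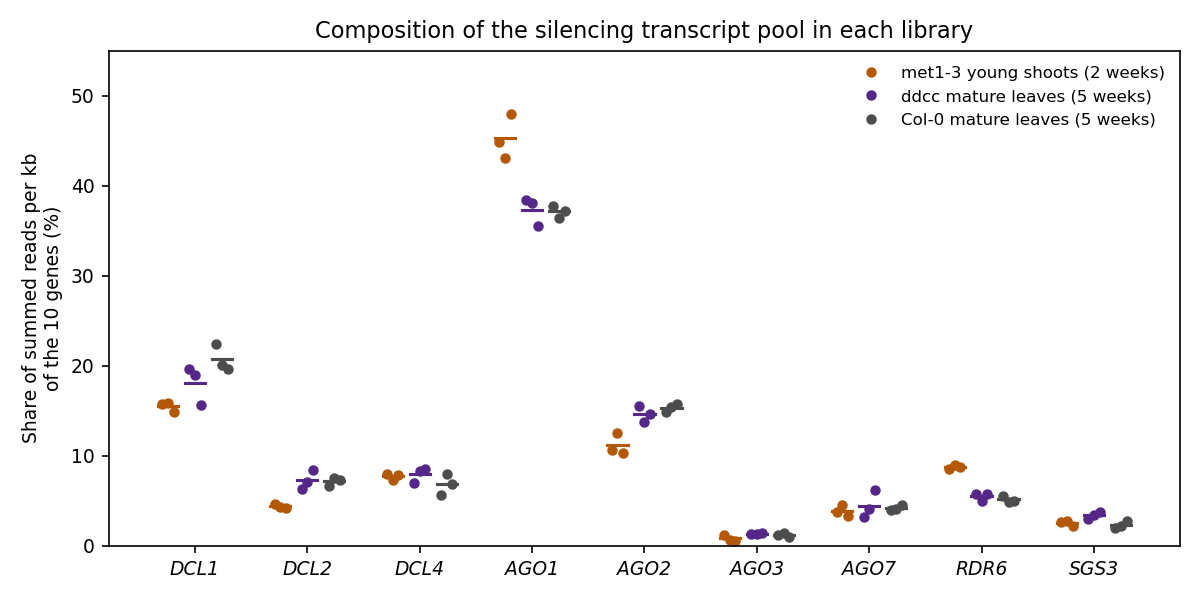
Share in percent of the summed reads per kb of the 10 silencing genes taken by each of 9, with 1 point per library and a line at the mean of 3 libraries, for met1-3 young shoots, ddcc mature leaves and Col-0 mature leaves. AGO1 and RDR6 take larger shares in met1-3 young shoots than in any leaf library, and AGO5, at 0 to 0.0574%, is not drawn. A larger share is not a higher level, and in nuclear RPKM both genes overlapped Col-0 leaves.

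The proteins that work with these enzymes were followed as lists in the same fit of ddcc against Col-0. Of 28 partner genes, all of them tested, 3 passed an adjusted p of 0.05 higher in ddcc and 1 lower, 14.3% in all beside 21.4% of all genes, and their median log2 fold change was -0.05. Of the 12 partners in miRNA maturation, which include HYL1, SE, HEN1 and HST, only DRB2 passed that threshold. DRB2, a double-stranded RNA-binding protein related to HYL1, had 124, 133 and 153 normalised reads in ddcc leaves, against 66.0, 72.2 and 67.7 in Col-0 leaves (log2 fold change 0.98 ± 0.14 SE, limma adjusted p = 0.00127). Each ddcc library was thus well above each Col-0 library, while HYL1, with 36.0, 54.9 and 38.7 in ddcc leaves against 47.2, 33.9 and 48.1 in Col-0 leaves, overlapped.

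Among 10 partners of the RNA-induced silencing complex (RISC) and of small RNA turnover, 1 was called by the thresholds of the study, SQN. Of all genes tested, 5.06% were called. SQN, a cyclophilin that promotes AGO1 activity, had 279, 334 and 314 normalised reads in ddcc leaves, against 54.5, 52.2 and 66.0 in Col-0 leaves. It averaged 309 in ddcc leaves, 5.37 times the 57.6 of Col-0 leaves, with a log2 fold change of 2.41 ± 0.14 (SE, limma adjusted p = 4.69e-06), and was called in all 14 alternative fits. AGO10, which competes with AGO1 for miR165 and miR166, had 158, 169 and 154 in ddcc leaves, against 93.3, 105 and 113 in Col-0 leaves (log2 fold change 0.63 ± 0.13 SE, limma adjusted p = 0.00814, and 0.119 when scaled by total counts). AGO10 was thus higher in every ddcc library, whereas its relative AGO1 was lower in every one without passing the test. SDN3, an exonuclease that degrades small RNAs, had 89.9, 131 and 70.8 in ddcc leaves, against 156, 144 and 173 in Col-0 leaves (-0.73 ± 0.21 SE, limma adjusted p = 0.0329), a call lost when any of 4 libraries was left out (at most 0.0964).

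Of 6 further partners in post-transcriptional silencing, DRB4, RDR1, RTL1, RTL2, SDE3 and SDE5, 0 passed an adjusted p of 0.05 in limma and 0 had an unadjusted p under 0.05, beside 21.4% and 36.1% of all genes. Of 10 factors linked to RNA decay, a process that can compete with RDR6 for aberrant transcripts, 1 passed an adjusted p of 0.05, again beside 21.4% of all genes. That was DCP5, a component of the decapping complex, with 738, 881 and 780 normalised reads in ddcc leaves, against 642, 564 and 588 in Col-0 leaves (0.42 ± 0.10 SE, limma adjusted p = 0.0162, from 0.0094 to 0.561 over the alternatives). The exonuclease XRN4, which removes uncapped RNA, had 381, 389 and 438 in ddcc leaves, against 313, 368 and 364 in Col-0 leaves, and was named after its values were seen (adjusted p = 0.191).

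**Figure D4:**
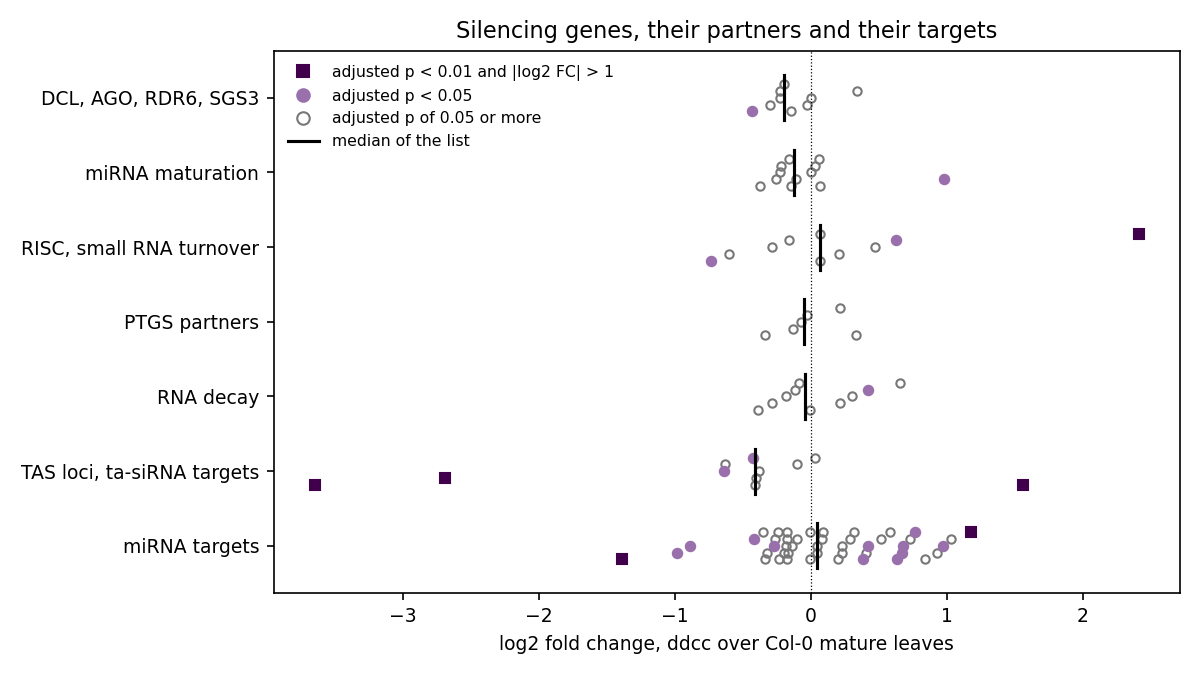
Log2 fold change of ddcc over Col-0 mature leaves for every tested gene of 7 lists, 1 point per gene, with squares for genes called by the thresholds of the study, filled circles for other genes with an adjusted p under 0.05, open circles for the rest and a line at the median of the list. The silencing genes lie within 0.44 of 0, while SQN lies at 2.41 and the ta-siRNA targets PAP1 and PAP2 at -2.69 and -3.65.

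Transcripts that the pathway makes or removes were read out next. The list of TAS loci and ta-siRNA targets held 16 genes, of which 11 were tested, 1 passed an adjusted p of 0.05 higher in ddcc and 4 lower (45.5% in all, beside 21.4% of all genes), and the median log2 fold change was -0.41, beside -0.03 over all genes. TAS3A, the precursor that AGO7 and miR390 turn into the ta-siRNAs against auxin response factors, had 49.2, 39.2 and 52.0 normalised reads in ddcc leaves, against 10.5, 16.5 and 19.6 in Col-0 leaves. TAS3A was higher in every ddcc library, at a log2 fold change of 1.56 ± 0.28 (SE, limma adjusted p = 0.00374, and at most 0.022 over 14 alternatives). It had only 10 to 24 reads per Col-0 library. With 1 library left out, it was called by the study's thresholds in 2 of 6 fits. Of its targets, ARF2 had 3634, 3759 and 3882 in ddcc leaves, against 5091, 5004 and 5032 in Col-0 leaves (-0.42 ± 0.07 SE, limma adjusted p = 0.00366), while ARF3 and ARF4 did not pass (0.922 and 0.104).

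TAS2, which miR173 opens to ta-siRNA production, had 51.6, 84.3 and 60.8 normalised reads in ddcc leaves, against 90.1, 110 and 102 in Col-0 leaves (-0.64 ± 0.20 SE, limma adjusted p = 0.045), a call lost without the filter and when any of 4 libraries was left out (at most 0.147). PAP1 and PAP2 are MYB factors that switch on anthocyanin synthesis and targets of TAS4 siRNAs. PAP1 had 21.6, 26.5 and 74.1 in ddcc leaves, against 254, 236 and 209 in Col-0 leaves (-2.69 ± 0.37 SE, limma adjusted p = 0.00096). PAP2 had 4.8, 15.7 and 18.8 in ddcc leaves, against 80.7, 182 and 253 in Col-0 leaves (-3.65 ± 0.50 SE, limma adjusted p = 0.000952). Both were lower in every ddcc library, with the largest fold changes among the 11 tested genes of the list, while TAS4 itself was not listed in the leaf table. The size of the PAP2 change is limited by depth, at 4 to 17 reads per ddcc library.

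**Figure D5:**
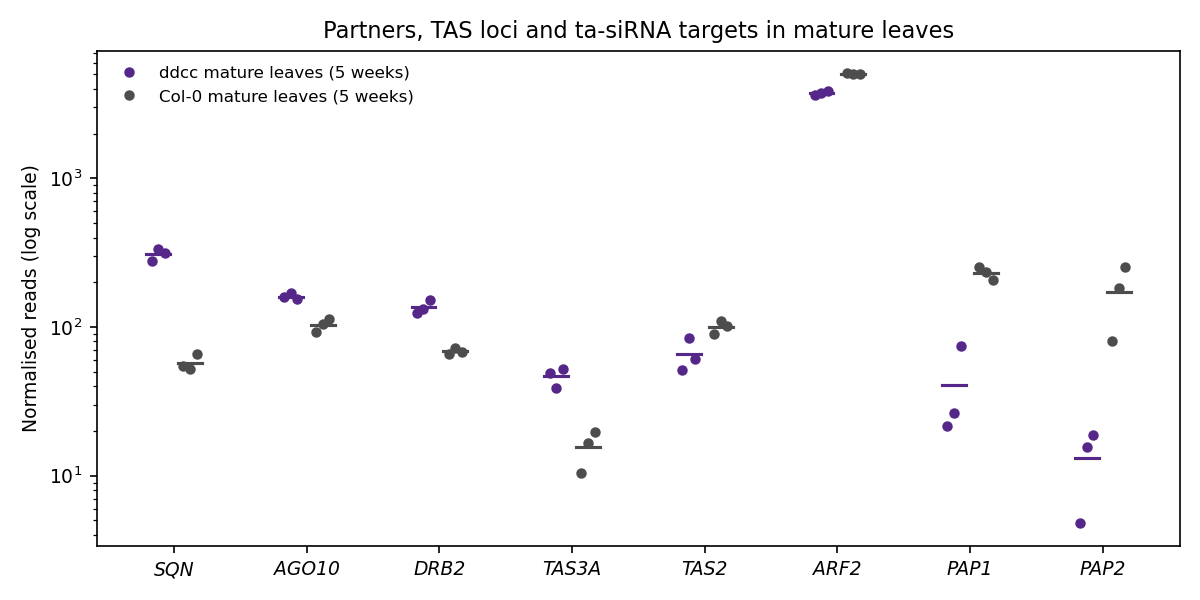
Normalised reads (log axis) of the partners SQN, AGO10 and DRB2, the loci TAS3A and TAS2 and the ta-siRNA targets ARF2, PAP1 and PAP2, with 1 point per library and a line at the mean of 3 libraries, in ddcc and Col-0 mature leaves. The ddcc libraries lie above the Col-0 libraries for SQN, AGO10, DRB2 and TAS3A and below them for TAS2, ARF2, PAP1 and PAP2.

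Of 54 known miRNA targets, 45 were tested, and their median log2 fold change was 0.05. Of the tested targets, 8 passed an adjusted p of 0.05 higher in ddcc and 5 lower. That was 28.9% in all, beside 21.4% of all genes (13.0% higher and 8.32% lower). HAM2, a GRAS-family regulator targeted by miR171, had 44.4, 64.7 and 39.8 normalised reads in ddcc leaves, against 18.9, 21.7 and 22.0 in Col-0 leaves (1.18 ± 0.24 SE, limma adjusted p = 0.0076). NFYA10, a transcription factor subunit targeted by miR169, had 26.4, 36.3 and 39.8 in ddcc leaves, against 65.0, 95.6 and 117 in Col-0 leaves (-1.39 ± 0.25 SE, limma adjusted p = 0.00395). These were the 2 of 45 tested targets called by the thresholds of the study, 1 in each direction, beside 5.06% of all genes tested. With 1 library left out, both kept an adjusted p under 0.05 in 6 of 6 fits, but HAM2 was called in 0 and NFYA10 in 1 of them. Next in size among the targets with an adjusted p under 0.05 came NFYA2, also of miR169, at -0.98 ± 0.14, ARF17, a target of miR160, at 0.97 ± 0.20, and AP2, a target of miR172, at -0.89 ± 0.18 (log2 fold change, SE), with limma adjusted p of 0.00129, 0.00721 and 0.00851.

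Of the loci of miR162, miR168, miR390 and miR403, MIR162A alone passed the filter on low counts and was tested, with 55.2, 46.0 and 71.9 normalised reads in ddcc leaves, against 60.8, 67.8 and 76.6 in Col-0 leaves (-0.26 ± 0.20 SE, limma adjusted p = 0.376). MIR168A had 7.2, 11.8 and 8.85 in ddcc leaves, against 4.19, 8.69 and 6.52 in Col-0 leaves, and MIR403 had 2.4, 2.94 and 2.21 in ddcc leaves, against 5.24, 6.09 and 8.97 in Col-0 leaves. These are reads on precursor genes, and the level of the mature miRNA cannot be read from them.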

How the data were processed

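RNA-seq was analysed for 3 libraries each of met1-3 young shoots, ddcc mature leaves and Col-0 mature leaves. The authors made libraries with a TruSeq RNA kit, trimmed reads (Fastp in the methods, Trimmomatic in the submitters' processing notes), mapped them to TAIR10 with Hisat2, dropped those with a mapping quality under 30 and counted the rest with HTSeq-count. Versions, annotation and strand setting are not given in the sources used here. The deposited values are log2 of reads over a size factor plus 1, set by the authors' normalization separately for the leaf and shoot tables. Undoing the log gave whole reads in each library, to within 8.2e-08. Replicates of a group differed by more than sampling noise (chi-square per degree of freedom 3.94 to 24.7). Both ends of this range came from met1-3 young shoots. There replicates 1 and 2 differed at 3.94, and replicate 3 differed from them at 20.75 and 24.66.

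ddcc and Col-0 leaves were compared with limma 3.58.1 in R 4.3.3 (lmFit, eBayes with trend) on the deposited log2 values, for genes reaching 15 reads in total and, in 3 or more libraries, the equivalent of 10 reads at median library size, with Benjamini-Hochberg adjustment over all genes tested. The test was checked on simulated data with the same spread for every gene, and only with changes beyond the study's fold limit. Smaller changes, such as that of DCL1, were not covered by this check. Alternatives were other scalings, a pseudocount of 0.1, other filters, limma voom, a replicate block, and each library left out. Exonic lengths, positions and sequences came from TAIR10.1, matched by locus identifier. All members are described, and of each other list the called genes and up to 3 more with an adjusted p under 0.05 by size of change are named. Other genes are named as examples of their list. The members and lists were chosen with earlier results of these data known. Tables were made with Python 3.11.15, pandas 2.3.3 and SciPy 1.17.1.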

Additional observations from a re-analysis of the deposited data

How the results depend on the processing

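DCL1 stayed lower in ddcc with an adjusted p under 0.05 in all 14 alternatives, and 0 of the silencing genes were called by the study's thresholds in any of them, whereas 1 passed an adjusted p under 0.05 with no fold limit (3634 of all genes). Scaling by total counts, plastid reads included, moved the median of all genes by -0.32 on the log2 scale and the share of called genes that were higher in ddcc to 35.9%, against 77.0%. Under it 5 silencing genes, DCL1, DCL2, AGO1, AGO2 and RDR6, passed an adjusted p of 0.05, and 2 partner genes were called instead of 1. Relative to the median of all genes under that scaling, DCL1 was at -0.41. Estimates changed sign for DCL4 with TMM factors (0.00978) and limma voom (0.00559), and when ddcc replicate 1, Col-0 replicate 2 or Col-0 replicate 3 was left out (range with 1 library left out -0.175 to 0.134), for AGO3 without ddcc replicate 1 or Col-0 replicate 2 (-0.136 to 0.116) and for AGO7 without ddcc replicate 1 (-0.492 to 0.0709). Voom called 1 miRNA target instead of 2. With 1 library left out, 554 to 958 genes were called (fewest without ddcc replicate 2), 1 to 2 silencing genes passed 0.05, 1 to 2 partners were called and 0 to 3 miRNA targets. The cause was not tested.

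Whether the replicate numbers pair the libraries was not settled. Deviations of same-numbered libraries correlated at 0.213, 0.000849 and 0.0351, beside -0.193 to 0.173 for libraries of different numbers. The fit with the replicate block called 1017 genes instead of 861 and 0 silencing genes. AGO3 and SGS3, at 22 to 67 reads per leaf library, and the MIR loci other than MIR162A are limited by depth.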
